A study of Mus musculus with 24 samples.

Results

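The enzymes of the mitochondrial respiratory chain beyond complex I were examined in mouse heart through their nuclear genes. The set held the 46 genes whose symbols begin with Uqcr, Cox4 to Cox8 or Atp5, or are Sdha, Sdhb, Sdhc, Sdhd or Cyc1, out of 20961 genes listed in the deposited table. Grouped by symbol, they comprised 4 genes of complex II, 9 of complex III, 16 of complex IV and 17 of complex V. Cox7a2l thus counts under complex IV, and Atp5s and Atp5sl under complex V, whether or not they encode subunits. The rule for members reads symbols only, and 2 further symbols ending in -ps (Atp5l-ps1 and Atp5l2-ps) were left out. All 46 passed the filter on low counts.

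Complex II (succinate dehydrogenase) passes electrons from succinate to ubiquinone. Complex III (cytochrome bc1) passes them on to cytochrome c, complex IV (cytochrome c oxidase) passes them to oxygen, and complex V (ATP synthase) uses the proton gradient that these steps build to make ATP. The heart is among the tissues richest in mitochondria. It uses muscle forms of several complex IV subunits, encoded by Cox6a2, Cox7a1 and Cox8b, beside the forms found in most tissues, encoded by Cox6a1, Cox7a2 and Cox8a.

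The libraries are bulk RNA of mouse hearts from the inbred strains C57BL/6J and CAST/EiJ, the latter wild-derived, and NZO/HlLtJ, an obese strain, with both sexes in each and all animals labelled wild type without treatment. In each strain and sex the diet was labelled as 10% fat (the control in the protocol) or 44% fat (a diet high in fat and sugar), both with fiber. By the labels, diets started at week 6 and hearts were collected at week 15. The 12 groups of strain, sex and diet held 2 libraries each, so every strain had 8, and totals ranged from 30205073 to 52254058 counts per library. Nothing in the labels ties each library to an animal of its own, so p-values measure only the spread between these samples, which may be technical. Sample identifiers fall into 3 ranges of numbers, the lowest with C57BL/6J and CAST/EiJ libraries only, and the middle and the highest with all 3 strains. In NZO/HlLtJ the combination of sex and diet is tied to the range, and in CAST/EiJ the diet is partly tied to it, with 10% fat alone in the middle range and 44% fat alone in the highest. In C57BL/6J the sex is partly tied to it, with males alone in the middle range and females alone in the highest.

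Cardiomyocyte markers were abundant in every library. The summed level of 9 such markers was 56803 to 62331 CPM (counts per 1e+06 counts, scaled by TMM factors) in C57BL/6J, 53202 to 65063 in CAST/EiJ and 52721 to 66270 in NZO/HlLtJ. Skeletal muscle markers summed to 0.600 to 4.06 CPM over 6 of 8 listed genes, with none at 0 in all libraries. Fibroblast markers summed to 744 to 796 CPM in C57BL/6J, 597 to 759 in CAST/EiJ and 991 to 1292 in NZO/HlLtJ, so NZO/HlLtJ stood above both others. Smooth muscle markers summed to 661 to 840 CPM in C57BL/6J, 411 to 503 in CAST/EiJ and 609 to 744 in NZO/HlLtJ, so CAST/EiJ stood below both others. Their part in the strain differences below was not tested, and in bulk tissue fewer cells of a type and less RNA per cell cannot be told apart.

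Levels between genes were compared as CPM per kilobase of exon. By that measure the most abundant members over the 24 libraries were Atp5a1 (1076) and Atp5b (934), which encode the alpha and beta subunits of the catalytic head of ATP synthase. Cox6a2 (854) and Cox4i1 (596), subunits of complex IV, followed. The lowest were Cox6b2 (0.474), a form best known from testis, Cox4i2 (5.08), known from lung and hypoxic cells, and Atp5s (5.48), which is not an established subunit of the enzyme. Muscle forms lay above their partners in 3 of 3 pairs on this scale: Cox6a2 above Cox6a1 (61.3), Cox7a1 (381) above Cox7a2 (216) and Cox8b (441) above Cox8a (109). Exon length was the union of annotated exons, so a long rare transcript lowers the value.

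Atp5g2 showed the widest strain difference of the set on the log2 scale, and its deposited counts depend on a near-identical copy elsewhere in the genome. Atp5g1, Atp5g2 and Atp5g3 encode the same mature c subunit of the ATP synthase ring, behind different targeting presequences. The gene lies at chr15:102662864-102672352 (GRCm38, minus strand, ENSMUSG00000062683). Gm10175, listed as a separate gene at chr7:23946646-23947290 (minus strand), matches most of its coding sequence. Of the 570 coding bases of Atp5g2, 496 were compared and 0 differed. The last 120 coding bases before the stop codon, from the GENCODE M21 transcripts, are shown because they separate the 3 c-subunit genes but not Atp5g2 from its copies. Capitals mark bases that differ from Atp5g2.
Atp5g2: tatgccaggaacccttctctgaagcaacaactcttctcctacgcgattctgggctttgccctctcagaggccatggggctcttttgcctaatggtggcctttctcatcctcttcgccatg
Gm10175: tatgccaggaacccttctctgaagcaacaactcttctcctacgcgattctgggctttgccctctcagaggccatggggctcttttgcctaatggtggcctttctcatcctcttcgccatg
Atp5g1: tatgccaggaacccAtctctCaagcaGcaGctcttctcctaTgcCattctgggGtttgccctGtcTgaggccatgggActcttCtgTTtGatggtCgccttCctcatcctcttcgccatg
Atp5g3: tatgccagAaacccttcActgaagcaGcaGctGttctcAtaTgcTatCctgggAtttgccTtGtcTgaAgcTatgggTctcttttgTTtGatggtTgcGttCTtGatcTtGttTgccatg
Gm10175 had 0 differences in this stretch, as did Gm10231 on chromosome 17, while Atp5g1 (chr11:96068852-96075670, minus strand) differed at 16 bases and Atp5g3 (chr2:73908447-73911326, minus strand) at 27.

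Counts under the name Atp5g2 were low in C57BL/6J, at 5.35, 8.94 and 11.5 CPM for the lowest, median and highest library. They were 4.98, 7.22 and 10.1 CPM in NZO/HlLtJ and 111, 117 and 126 CPM in CAST/EiJ. Every CAST/EiJ library thus stood far above every library of the other strains. Gm10175 showed the mirror image, with 107, 117 and 123 CPM in C57BL/6J, 103, 106 and 117 in NZO/HlLtJ and at most 0.302 in CAST/EiJ. Atp5g2 held a median of 7.20% of the sum of both genes in C57BL/6J, 6.29% in NZO/HlLtJ and 99.9% in CAST/EiJ.

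The edgeR quasi-likelihood test called Atp5g2 higher in CAST/EiJ than in C57BL/6J, by 3.84 on the log2 scale (SE 0.14, adjusted p = 1.73e-11). Summed with its copies, it was lower instead, by a log2 difference of -0.09 (SE 0.03, adjusted p = 0.0236 in edgeR), a direction opposite to that of the gene taken alone. NZO/HlLtJ minus CAST/EiJ was -4.00 for Atp5g2 alone (SE 0.15, adjusted p = 1.13e-11) and -0.04 for the sum (SE 0.03, adjusted p = 0.279). NZO/HlLtJ minus C57BL/6J was -0.16 for Atp5g2 alone (SE 0.15, adjusted p = 0.450 in edgeR), which was not called. For the sum it was -0.13 (SE 0.03, adjusted p = 0.00367 in edgeR), which was called. Whether the reads came from the parent gene or the copy was not tested, and the coding bases compared do not tell them apart. The fit on sums was added after the values had been seen.

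**Figure D1:**
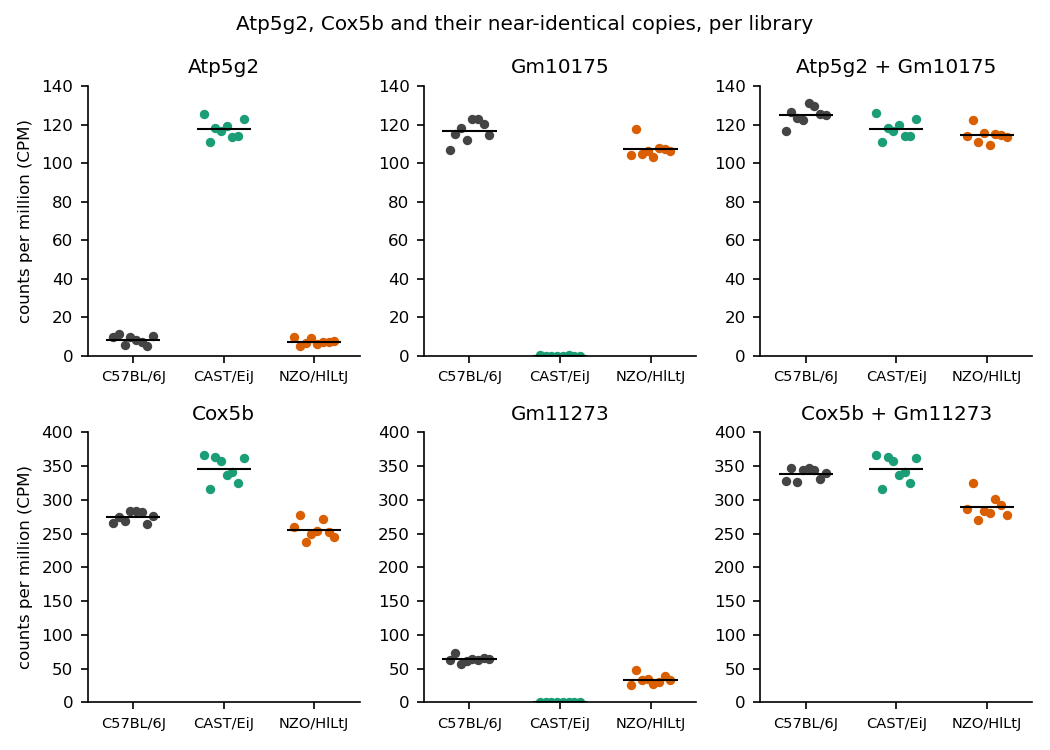
Level of Atp5g2 with its copy Gm10175 and of Cox5b with its copy Gm11273, and their sums, in CPM (vertical axis), 1 point for each of the 24 libraries, by strain (horizontal axis). In CAST/EiJ the copies sit at or near 0 (at most 0.302 CPM for Gm10175) and the parent genes are high, while in the sums the strain ranges of Atp5g2 overlap and those of Cox5b are lowest in NZO/HlLtJ. Lines are strain means.

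Cox5b, a complex IV subunit bound to zinc, had a partial case of the same kind. It lies at chr1:36691484-36693681 (plus strand, ENSMUSG00000061518), and Gm11273 at chr13:21501029-21501418 (minus strand) differs from its coding sequence at 3 of 387 bases. A stretch of 120 bases is shown for the pair because it holds 2 of these differences, in capitals.
Cox5b: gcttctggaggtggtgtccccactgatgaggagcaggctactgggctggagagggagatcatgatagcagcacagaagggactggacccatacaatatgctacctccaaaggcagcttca
Gm11273: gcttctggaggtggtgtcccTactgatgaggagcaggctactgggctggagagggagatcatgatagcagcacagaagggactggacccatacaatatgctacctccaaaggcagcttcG
Cox5b had 264, 275 and 284 CPM (lowest, median, highest) in C57BL/6J, 316, 349 and 367 in CAST/EiJ and 238, 253 and 278 in NZO/HlLtJ. The copy had medians of 63.2, 0.0506 and 32.8 CPM in the same order. Cox5b alone was called higher in CAST/EiJ than in C57BL/6J (log2 difference 0.33, SE 0.03, adjusted p = 1.98e-08). The sum of both was not called (0.03, SE 0.03, adjusted p = 0.454). In NZO/HlLtJ the sum was lower, by a difference of -0.23 from C57BL/6J (adjusted p = 3.01e-05) and -0.26 from CAST/EiJ (adjusted p = 2.37e-06).

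Cox7a2l, an assembly factor of respiratory supercomplexes of which C57BL/6J carries a short allele, also had a listed copy, Gm6969. These counts over the whole gene do not show which allele was read. The copy had 7.62 to 11.1 CPM in CAST/EiJ and at most 1.59 in the other strains, against medians of 140, 145 and 155 CPM for Cox7a2l in C57BL/6J, CAST/EiJ and NZO/HlLtJ. CAST/EiJ minus C57BL/6J was 0.06 for the gene (SE 0.03, adjusted p = 0.0644) and 0.15 for the sum (adjusted p = 0.000104), and NZO/HlLtJ minus CAST/EiJ was 0.10 (adjusted p = 0.00487) and 0.01 (adjusted p = 0.731). Thus which strain pair passed the edgeR test for Cox7a2l depended on the copy. In all, 15 members had a copy of at least 95% identity over at least 100 bases, 10 had such a copy listed in the deposited table, and 4 of the 17 listed copies reached 1 CPM in a strain.

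Strain differences among the 46 genes are given first for NZO/HlLtJ against C57BL/6J. In NZO/HlLtJ 20 members were lower (43.5%) and 3 higher (6.52%) at an adjusted p under 0.05 in edgeR, against 17.6% lower and 17.9% higher of the 17203 genes tested. The members' median log2 difference was -0.08, with 36 of 46 negative, while the median over all tested genes was 0.00. Within the identifier ranges that hold both strains the median was -0.15 (middle range) and -0.10 (highest range), and 42 of 46 members kept their direction in each. C57BL/6J is represented there by 1 sex alone, so strain is not balanced for sex within these ranges, nor for diet where CAST/EiJ enters. By complex, the calls were 1 higher and 2 lower of 4 in complex II, 0 and 2 of 9 in complex III, 1 and 9 of 16 in complex IV, and 1 and 7 of 17 in complex V. The 3 strain comparisons share libraries and are therefore not independent of each other.

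Complex II moved in both directions. Sdha, the flavin-bearing catalytic subunit (chr13:74322254-74350280, minus strand), had 1244, 1312 and 1354 CPM (lowest, median, highest) in C57BL/6J, 1137, 1247 and 1358 in CAST/EiJ and 924, 1005 and 1101 in NZO/HlLtJ. All NZO/HlLtJ libraries lay below all others, and the gene was lower there than in C57BL/6J by a log2 difference of -0.37 (SE 0.03, adjusted p = 6.28e-09, edgeR). Sdhc, one of the membrane anchors (chr1:171127165-171150603, minus strand), had 296, 321 and 362 CPM in C57BL/6J, 265, 283 and 295 in CAST/EiJ and 372, 387 and 401 in NZO/HlLtJ. For Sdhc the 3 strains did not overlap, with CAST/EiJ lowest and NZO/HlLtJ highest. It was higher in NZO/HlLtJ than in C57BL/6J by 0.26 (SE 0.03, adjusted p = 1.04e-06) and lower in CAST/EiJ than in C57BL/6J by a difference of -0.21 (SE 0.03, adjusted p = 4.94e-06). Sdhb, the iron-sulfur subunit, was the second lower member (-0.15, SE 0.03, adjusted p = 0.00159). Sdhd, the other anchor, differed by -0.07 (SE 0.03, adjusted p = 0.0841) and was not called.

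Other members lower in NZO/HlLtJ belonged mostly to complexes IV and V. Complex III added Uqcrh and Cyc1, and the call for Cyc1 was lost in 10 of the 24 fits without 1 library. Cox7c, a small structural subunit of complex IV, had 334, 342 and 382 CPM in C57BL/6J, 280, 327 and 349 in CAST/EiJ and 254, 261 and 291 in NZO/HlLtJ. The NZO/HlLtJ and C57BL/6J libraries did not overlap, and the log2 difference was -0.39 (SE 0.03, adjusted p = 6.42e-09). Cox6a2, the muscle form of subunit VIa, was lower by a difference of -0.24 (SE 0.04, adjusted p = 7.10e-05). Its range was 471 to 570 CPM in NZO/HlLtJ against 569 to 652 in C57BL/6J and 557 to 680 in CAST/EiJ, so that single libraries overlapped. Atp5j, which encodes coupling factor 6 of ATP synthase, was lower by a difference of -0.19 (adjusted p = 2.37e-05), at 272 to 311 CPM against 314 to 351. An overlapping gene on the other strand, Gabpa, shares 397 exonic bases with Atp5j, and strand handling is not given in the sources used here. Other members overlap opposite-strand genes too, among them Uqcrc2 (504 bases with Pdzd9), Atp5f1 (337 with Wdr77) and Cox6c (250 with Vps13b). Besides Sdhc, the members higher in NZO/HlLtJ were Cox7a2l (0.16, adjusted p = 0.000154) and Atp5e, the epsilon subunit of ATP synthase (0.11, adjusted p = 0.0231). The call for Atp5e was lost with the identifier range as a block and in 6 of the 24 fits that each left out 1 library, and within the highest identifier range its difference was -0.03.

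In CAST/EiJ against C57BL/6J, members were called in both directions. Of the 46, 17 were higher (37.0%) and 11 lower (23.9%) in edgeR, against 29.1% higher and 29.7% lower of all genes tested. The median log2 difference was 0.05, with 27 of 46 positive. Within identifier ranges the median was 0.05 (lowest range), -0.03 (middle range) and 0.02 (highest range), with 41, 36 and 41 of 46 members in the direction of the pooled fit. Complex III had 7 of 9 members higher and 1 lower (median 0.14). Complex IV had 6 higher and 3 lower of 16, complex V 4 and 6 of 17, and complex II 0 and 1 of 4.

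Complex III was the group with the largest share of higher calls in CAST/EiJ. Uqcrc1, a core subunit facing the matrix (chr9:108936633-108949623, plus strand), had 762, 800 and 858 CPM in C57BL/6J, 1005, 1042 and 1120 in CAST/EiJ and 751, 807 and 869 in NZO/HlLtJ. CAST/EiJ stood above both other strains with no overlap, by 0.39 against C57BL/6J (SE 0.03, adjusted p = 7.93e-10). Uqcrfs1, the Rieske iron-sulfur protein (chr13:30540308-30545362, minus strand), had 489, 539 and 571 CPM in C57BL/6J, 619, 681 and 707 in CAST/EiJ and 483, 513 and 541 in NZO/HlLtJ. Its log2 difference was 0.33 (SE 0.03, adjusted p = 3.05e-08). Uqcrc2, the second core subunit (0.18, adjusted p = 0.000139), Uqcrq, a small subunit (0.27, adjusted p = 1.10e-05), and Cyc1, cytochrome c1 (0.14, adjusted p = 0.00213), were higher too. Uqcrh, the hinge protein, was the 1 lower member (-0.11, SE 0.04, adjusted p = 0.0178). Its call was lost in 2 of the 24 fits without 1 library and within each identifier range. The call for Cyc1 was also lost within each range, with a lowest difference of 0.02 over the alternatives. Calls for Uqcrc2 and Uqcrq were lost within the middle and highest ranges, and those for Uqcrc1 and Uqcrfs1 within the middle range. Uqcr10 and Uqcr11, called in the pooled fit, differed by -0.02 and -0.01 within the middle identifier range. Summed CPM of the 9 genes ranged from 3425 to 3710 in C57BL/6J, 3831 to 4330 in CAST/EiJ and 3266 to 3759 in NZO/HlLtJ.

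Atp5b (chr10:128083273-128090391, plus strand) separated all 3 strains. It had 3642, 3823 and 4015 CPM in C57BL/6J, 4536, 4785 and 5105 in CAST/EiJ and 3071, 3263 and 3495 in NZO/HlLtJ. The log2 difference was 0.33 for CAST/EiJ (SE 0.03, adjusted p = 4.88e-09) and -0.23 for NZO/HlLtJ (SE 0.03, adjusted p = 2.42e-06), each against C57BL/6J. Its partner in the catalytic head, Atp5a1, had medians of 3384, 3458 and 3234 CPM in C57BL/6J, CAST/EiJ and NZO/HlLtJ, and its ranges overlapped in every pair of strains. It was called lower in NZO/HlLtJ than C57BL/6J (-0.08, SE 0.03, adjusted p = 0.0265), a call lost with the identifier range as a block and in 6 of the 24 fits without 1 library. Atp5c1, the central gamma subunit, was lower in CAST/EiJ (-0.13, adjusted p = 0.000173) and in NZO/HlLtJ (-0.15, adjusted p = 0.000123), with 723 to 753 CPM in C57BL/6J, 627 to 705 in CAST/EiJ and 633 to 707 in NZO/HlLtJ. Atp5j (-0.16, adjusted p = 8.84e-05) and Atp5l, subunit g (-0.16, adjusted p = 0.000388), were also lower in CAST/EiJ than in C57BL/6J. Between these strains the calls for Atp5c1 and Atp5l were lost within each identifier range. The call for Atp5j was lost within the lowest and middle ranges, and that for Atp5b within the middle range.

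NZO/HlLtJ against CAST/EiJ gave the most calls. Of the 46 members, 29 were lower in NZO/HlLtJ (63.0%) and 7 higher (15.2%) in edgeR, against 29.8% lower and 30.5% higher of all genes tested. The median was -0.14, with 37 of 46 negative, and it was -0.12 and -0.11 within the middle and the highest identifier range, where 42 and 44 members kept their direction. Complex III had 0 higher and 7 lower members, complex IV 3 and 12, complex V 3 and 8, and complex II 1 and 2. Apart from Atp5g2, described above with its copy, the lower members with the smallest p were Atp5b (-0.56, adjusted p = 2.38e-12), Cox7a2 (-0.64, adjusted p = 5.22e-12), Cox5b (-0.43, adjusted p = 4.03e-10), Uqcrc1 (-0.39, adjusted p = 7.27e-10) and Uqcrfs1 (-0.39, adjusted p = 2.38e-09). Higher in NZO/HlLtJ were Sdhc (0.47, adjusted p = 7.89e-11), Cox7a1 (0.51, adjusted p = 3.99e-08), Atp5s (0.31, adjusted p = 0.000105), Cox6b2 (1.68, adjusted p = 0.000369), Cox7a2l (0.10, adjusted p = 0.00487), Atp5e (0.13, adjusted p = 0.00614) and Atp5l (0.08, adjusted p = 0.0399), whose call was lost in 12 of the 24 fits without 1 library, without the low-count filter, without mitochondrially encoded genes in the library sizes, with only the libraries compared, with the identifier range as a block and within both ranges. Cox6b2 was near the lower limit of what was measured, at 0.0880 to 0.527 CPM in CAST/EiJ, 0.414 to 1.01 in C57BL/6J and 0.442 to 1.50 in NZO/HlLtJ.

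**Figure D2:**
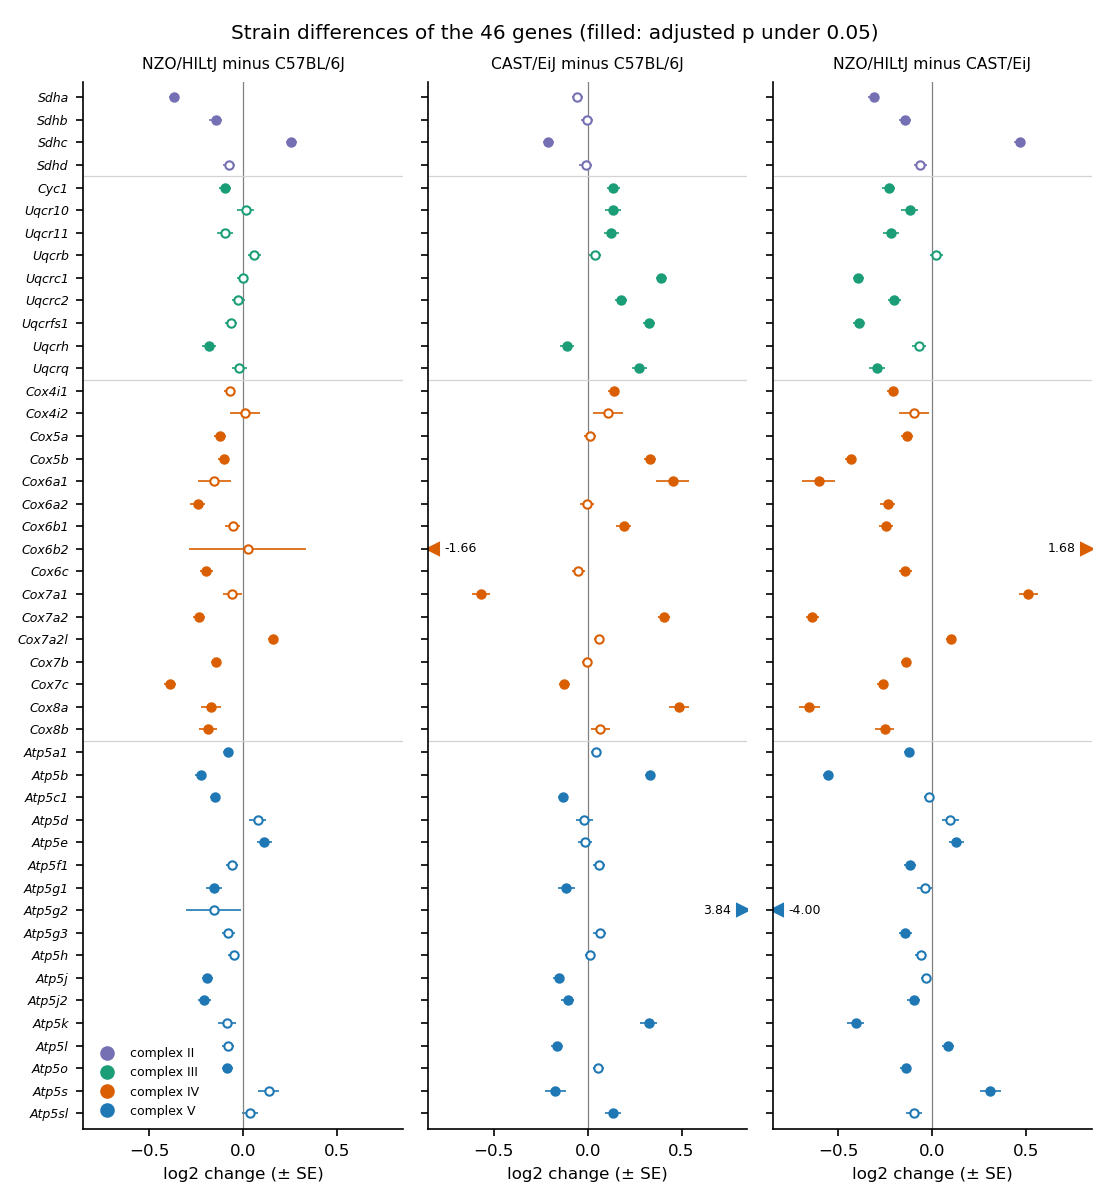
Log2 difference of each of the 46 genes (vertical axis, by complex) in the 3 strain comparisons of the edgeR fit, with bars for 1 SE, filled points called at an adjusted p under 0.05 and triangles for values beyond the axis. Most points of NZO/HlLtJ against C57BL/6J lie left of 0 (36 of 46), and the Atp5g2 value of 3.84 for CAST/EiJ is -0.09 once its copies are added.

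The summed level of all 46 genes was lowest in NZO/HlLtJ and highest in CAST/EiJ by the median. It was 20042, 21037 and 22992 CPM (lowest, median, highest) in NZO/HlLtJ, 22368, 22757 and 23919 in C57BL/6J and 23199, 24916 and 25970 in CAST/EiJ, with overlap between C57BL/6J and each of the others. The sum weights members by their counts, which were highest on average for Atp5b (medians of 3263, 3823 and 4785 CPM in the same order). For complex II alone the order differed, with medians of 2082, 2379 and 2282 CPM. The lowest NZO/HlLtJ libraries were the male 44% fat ones (20042 and 20457), which also had the lowest cardiomyocyte marker sums of their strain (52721 and 53373). In CAST/EiJ the female 44% fat libraries were lowest in both (23199 and 23680 for the members, 53202 and 56690 for the markers). C57BL/6J went the other way, its male 44% fat libraries being highest for the members (23695 and 23919). Their marker sums (57873 and 61139) lay below those of the male 10% fat libraries (61461 and 61823). The part of the cardiomyocyte share in these sums was not tested.

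**Figure D3:**
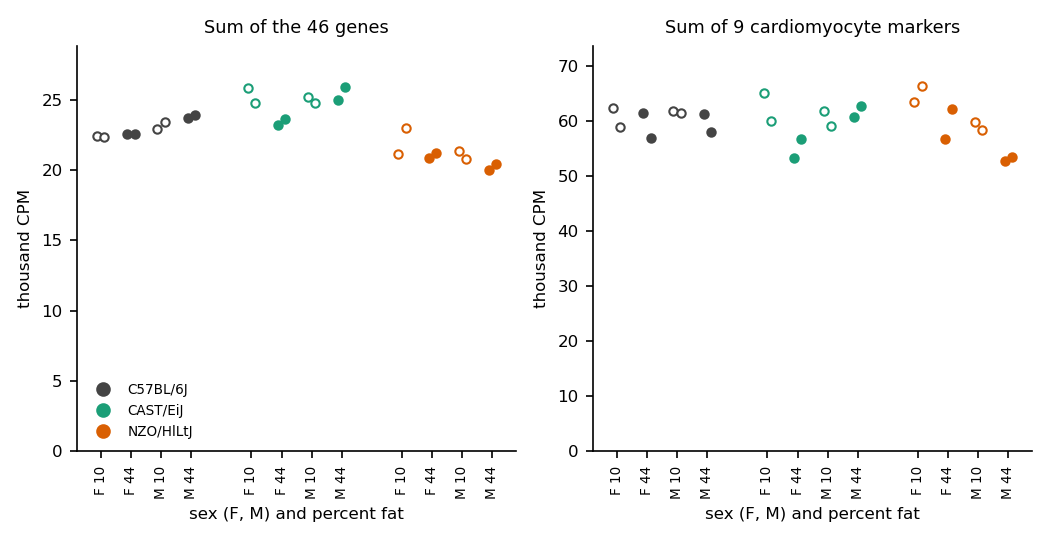
Summed CPM, divided by 1000, of the 46 genes (left) and of 9 cardiomyocyte markers (right) in each library (points), by strain, sex and percent fat (open points 10%, filled points 44%). The NZO/HlLtJ male 44% fat libraries are the lowest of their strain in both sums, and so are the CAST/EiJ female 44% fat libraries. The C57BL/6J male 44% fat libraries are the highest of their strain for the 46 genes but not for the markers.

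In CAST/EiJ the RNA of 3 widely expressed complex IV forms, Cox6a1, Cox7a2 and Cox8a, was higher relative to that of the muscle forms. The 6 pairs of alternative subunits were compared as the log2 ratio of their CPM, with an exact two-sided permutation test over libraries and Benjamini-Hochberg adjustment over 36 tests. The smallest p these tests allow is 0.0001554 for 8 against 8 libraries and 0.0286 for 4 against 4. Of the 18 strain tests 11 were called, and of the 18 diet tests 0 were called, with 0 at an unadjusted p under 0.05.

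The Cox7a1/Cox7a2 ratio differed most clearly. Cox7a1 (chr7:30184144-30186078, plus strand) had 221, 227 and 259 CPM in C57BL/6J, 136, 157 and 174 in CAST/EiJ and 196, 215 and 265 in NZO/HlLtJ. Cox7a2 (chr9:79755241-79759853, minus strand) had 184, 191 and 204 CPM in C57BL/6J, 227, 260 and 272 in CAST/EiJ and 146, 160 and 189 in NZO/HlLtJ. CAST/EiJ was thus lowest for the muscle form and highest for the other form, without overlap with either strain. By edgeR, Cox7a1 was lower in CAST/EiJ than in C57BL/6J by a log2 difference of -0.57 (SE 0.05, adjusted p = 9.67e-09) and Cox7a2 higher by 0.40 (SE 0.03, adjusted p = 3.95e-09). The mean log2 ratio was 0.27 ± 0.07 (SD, n = 8) in C57BL/6J, -0.70 ± 0.08 (n = 8) in CAST/EiJ and 0.44 ± 0.14 (n = 8) in NZO/HlLtJ. The ratio in CAST/EiJ was lower by a difference of -0.97 against C57BL/6J (exact permutation test, adjusted p = 0.000932), and NZO/HlLtJ was 1.15 above CAST/EiJ (exact permutation test, adjusted p = 0.000932). NZO/HlLtJ was also above C57BL/6J, by 0.17 (exact permutation test, adjusted p = 0.0209), the 1 pair called between these strains. Their libraries overlapped, and the difference was 0.05 within the middle identifier range and 0.28 within the highest.

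For subunit VIII, Cox8a had 54.4, 61.1 and 68.2 CPM in C57BL/6J, 77.2, 84.2 and 98.1 in CAST/EiJ and 47.4, 54.6 and 63.3 in NZO/HlLtJ, and was higher in CAST/EiJ than in C57BL/6J by 0.49 (SE 0.05, adjusted p = 2.88e-07, edgeR). Cox8b, its muscle counterpart, differed by 0.07 (SE 0.05, adjusted p = 0.248). The Cox8b/Cox8a log2 ratio averaged 1.41, 0.99 and 1.39 in C57BL/6J, CAST/EiJ and NZO/HlLtJ, with CAST/EiJ lower than C57BL/6J by a difference of -0.42 (exact permutation test, adjusted p = 0.000932). The ratio thus moved with Cox8a, not with a called change of Cox8b.

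Cox6a1 had 35.7, 38.6 and 45.9 CPM in C57BL/6J, 47.7, 50.6 and 75.5 in CAST/EiJ and 30.0, 35.1 and 42.0 in NZO/HlLtJ. Its difference between CAST/EiJ and C57BL/6J was 0.45 (SE 0.09, adjusted p = 0.000302), and no library of one strain reached the other. The Cox6a2/Cox6a1 log2 ratio averaged 3.96 in C57BL/6J, 3.51 in CAST/EiJ and 3.87 in NZO/HlLtJ, and was lower in CAST/EiJ than in C57BL/6J by a difference of -0.45 (exact permutation test, adjusted p = 0.000932). The Atp5g1/Atp5g3 ratio was lower in CAST/EiJ by -0.18 (exact permutation test, adjusted p = 0.000932), and the Cox6b2/Cox6b1 ratio by -1.93 (exact permutation test, adjusted p = 0.00224). Cox6b2 had at most 0.527 CPM in CAST/EiJ, however. The Cox6b2/Cox6b1 ratios of CAST/EiJ (SD 0.91) and C57BL/6J (SD 0.49) overlapped. The Cox4i2/Cox4i1 ratio was not called between any strains, at mean log2 ratios of -7.87, -7.90 and -7.79. Within the identifier ranges the called differences kept their direction in 5 of 5, 11 of 11 and 11 of 11 tests. At those library numbers the exact test allows no call after adjustment. Cox7a1 and Cox8b are also known from brown fat, whose 4 listed markers summed to 160 to 252 CPM in C57BL/6J, 98.4 to 318 in CAST/EiJ and 97.6 to 168 in NZO/HlLtJ, with Ucp1 between 1.12 and 140 CPM over the libraries. The brown fat sums of the strains overlapped, and their part in the ratios was not tested.

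**Figure D4:**
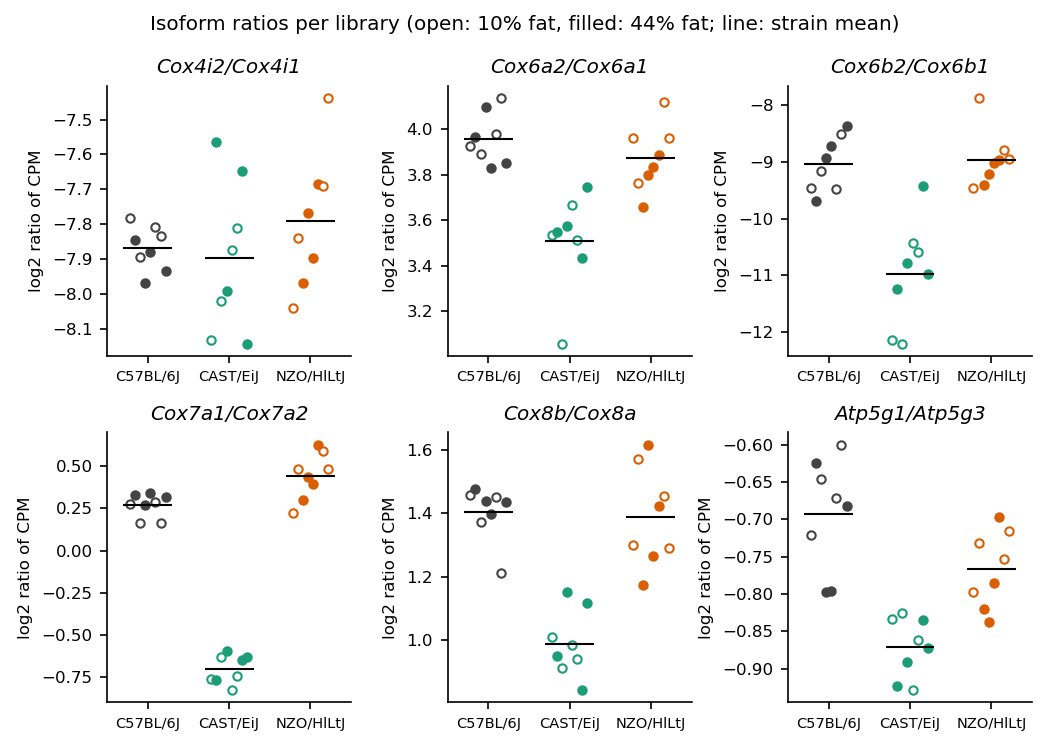
Log2 ratio of CPM for 6 pairs of alternative subunits (panels) in each library, by strain (open points 10% fat, filled points 44% fat, lines strain means). CAST/EiJ libraries lie between -0.83 and -0.60 for Cox7a1/Cox7a2, where all libraries of the other strains are above 0.16.

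Diet changed no member past the threshold. With 44% against 10% fat, edgeR called 0 of 46 members in C57BL/6J (0.0407% of all genes were called), 0 in CAST/EiJ (0%), 0 in NZO/HlLtJ (0%) and 0 over the 3 strains (0.157%). In that order, 2, 6, 5 and 4 members had an unadjusted p under 0.05. Neither DESeq2 nor limma-voom called a member (0 in each). The members' median log2 difference was 0.04 in C57BL/6J (38 of 46 positive), -0.04 in CAST/EiJ (42 negative) and -0.06 in NZO/HlLtJ (41 negative). Leaving out each library in turn, the median ranged from 0.03 to 0.05 in C57BL/6J, from -0.07 (without the second female 10% fat library) to -0.02 (without the first male 10% fat library) in CAST/EiJ, and from -0.09 to -0.03 (without the first or second female 10% fat library) in NZO/HlLtJ. The test of the difference in diet effect called 0 members for CAST/EiJ minus C57BL/6J (0% of all genes), 0 for NZO/HlLtJ minus C57BL/6J (0.00581%) and 0 for NZO/HlLtJ minus CAST/EiJ (0%). At an unadjusted p under 0.05 these held 6, 5 and 0 members, so an opposite response of the strains was not shown for any gene. The male 44% fat libraries of NZO/HlLtJ and the female 44% fat libraries of CAST/EiJ, low in the members' sum, were low in cardiomyocyte markers too, as given above. In C57BL/6J the male 44% fat libraries were highest in the members' sum but not in the markers.

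The highest and lowest diet differences came mostly from members with low counts. In C57BL/6J the highest was Atp5g2 (0.54, SE 0.21, adjusted p = 0.808), with 9.67, 5.34, 5.58 and 6.98 CPM at 10% fat and 11.5, 10.2, 10.0 and 8.21 at 44% fat, which overlap. The lowest was Cox4i2 (-0.07, SE 0.11, adjusted p = 0.988), with 4.06, 3.80, 3.85 and 4.21 CPM against 3.90, 3.59, 3.70 and 3.95. In CAST/EiJ Cox6b2 was highest (0.69, SE 0.55, adjusted p = 0.905), with 0.0880, 0.277, 0.0891 and 0.227 CPM at 10% fat and 0.140, 0.527, 0.221 and 0.195 at 44%. At such levels, all under 1 CPM, 1 library moves the mean. Cox6a1 was lowest in CAST/EiJ (-0.17, SE 0.12, adjusted p = 0.885), where 1 male 10% fat library had 75.5 CPM and the other 10% fat libraries 47.7 to 57.7, against at most 52.2 at 44% fat. In NZO/HlLtJ Cox6b2 was lowest (-0.58, SE 0.44, adjusted p = 0.808), with 1.50 CPM in 1 female 10% fat library and 0.442 to 0.745 in all others. Over the 3 strains the lowest was Cox7a2 (-0.08, SE 0.03, adjusted p = 0.336).

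Sex gave the same count of 0 calls in edgeR. Male minus female called 0 of 46 members over the 3 strains (0.372% of all genes), 0 in C57BL/6J (0.145%), 0 in CAST/EiJ (0.0872%) and 0 in NZO/HlLtJ (0.134%), with an unadjusted p under 0.05 for 4, 6, 11 and 9 members. The counts were 0 with limma-voom and with DESeq2 as well. The median difference was 0.05 in C57BL/6J (43 of 46 positive), 0.08 in CAST/EiJ (42 positive) and -0.05 in NZO/HlLtJ (41 negative). Without the second NZO/HlLtJ female 10% fat library, the NZO/HlLtJ median was -0.01 with 21 of 46 positive.

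Sdhc in C57BL/6J had the highest difference between sexes in that strain (0.13, SE 0.04, adjusted p = 0.412). Its libraries had 311, 296, 316 and 319 CPM in females and 329, 323, 347 and 362 in males. The male libraries were all above the female ones, yet the difference did not pass the test across all genes. In CAST/EiJ the highest was Cox7a1 (0.17, SE 0.07, adjusted p = 0.524), with 136 to 161 CPM in females and 153 to 174 in males. In NZO/HlLtJ it was Cox4i2 (0.13, SE 0.11, adjusted p = 0.888).

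Differences in the sex effect between strains were tested after the values had been seen. NZO/HlLtJ minus C57BL/6J had a median of -0.10 (44 of 46 negative) and NZO/HlLtJ minus CAST/EiJ of -0.13 (43 negative), with 0 members called by edgeR in either (0% of all genes in both) and 10 and 16 at an unadjusted p under 0.05. Without the second NZO/HlLtJ female 10% fat library the medians were -0.08 and -0.09. DESeq2 called 2 members lower in the comparison with CAST/EiJ, Uqcrb, a complex III subunit (-0.29, adjusted p = 0.0448), and Cox7b, a complex IV subunit (-0.20, adjusted p = 0.0323). The edgeR values were -0.29 (SE 0.07, adjusted p = 0.271) for Uqcrb and -0.20 (SE 0.05, adjusted p = 0.326) for Cox7b. Uqcrb had 208 to 244 CPM in CAST/EiJ females and 235 to 258 in males, against 229 to 279 in NZO/HlLtJ females and 216 to 237 in males. Ranges of the sexes thus overlapped in both strains.

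**Figure D5:**
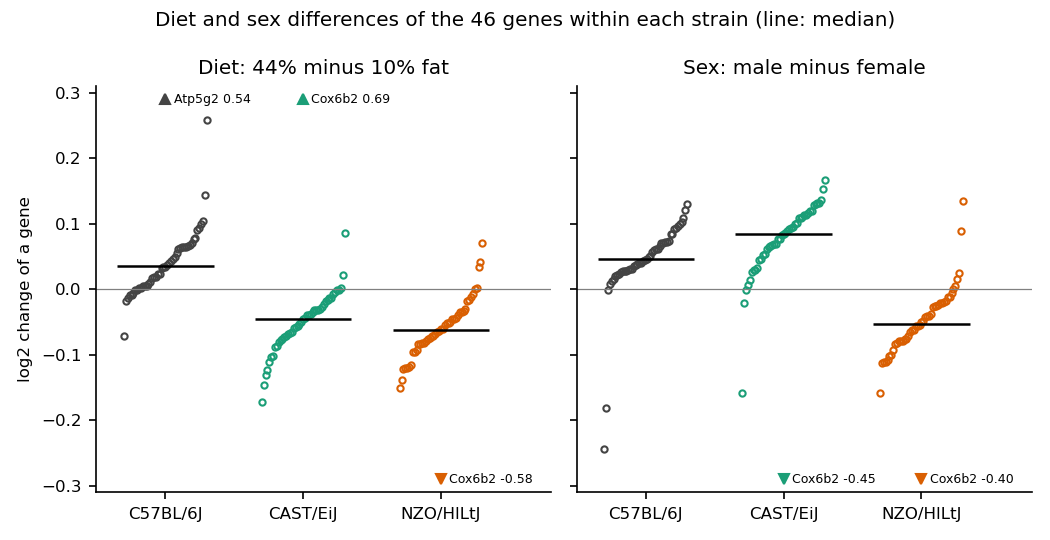
Log2 differences of the 46 genes (points) for 44% minus 10% fat (left) and male minus female (right) in each strain, from the edgeR fit. Lines are medians and triangles mark values beyond the axis. Points lie mostly above 0 in C57BL/6J (38 and 43 of 46) and mostly below 0 in NZO/HlLtJ (41 and 41 negative), with 0 called in any panel.

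Promoter sequences were searched for motifs of factors known to act on respiratory genes. RefSeq (GRCm38.p6) gave 40 windows, from 250 bases before to 50 after the start, for 36 of the 46 genes, and both strands were searched. A gene with several windows was counted once. The NRF1 motif TGCGCANGC was in 6 of the 36 genes (16.7%) against 4.7% of all 27025 genes with a window. The ETS-family motif CCGGAAG, bound by GABPA, was in 12 (33.3%) against 9.93%, the ERR motif TCAAGGTCA in 2 (5.56%) against 0.466%, and the YY1 motif ATGGCGGC in 1 (2.78%) against 2.6%. These matches describe the letters only. The 250 bases upstream are shown for Sdhd and Cox6a1, which like Atp5l hold both NRF1 and ETS motifs there, and for Sdha, which holds 2 NRF1 motifs. Capitals mark the motifs on either strand.
Sdhd, chr9:50603850-50604099, minus strand: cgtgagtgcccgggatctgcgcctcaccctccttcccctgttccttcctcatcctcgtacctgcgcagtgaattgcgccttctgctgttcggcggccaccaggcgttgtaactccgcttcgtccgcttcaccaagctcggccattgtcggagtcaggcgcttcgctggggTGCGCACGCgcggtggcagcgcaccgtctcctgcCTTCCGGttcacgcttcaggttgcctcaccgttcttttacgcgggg
Cox6a1, chr5:115348959-115349208, minus strand: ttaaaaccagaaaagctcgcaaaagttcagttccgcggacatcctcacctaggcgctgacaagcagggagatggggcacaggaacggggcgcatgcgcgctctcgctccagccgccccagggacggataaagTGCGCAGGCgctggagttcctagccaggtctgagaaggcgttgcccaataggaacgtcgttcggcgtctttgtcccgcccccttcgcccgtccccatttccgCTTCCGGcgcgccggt
Sdha, chr13:74350241-74350490, minus strand: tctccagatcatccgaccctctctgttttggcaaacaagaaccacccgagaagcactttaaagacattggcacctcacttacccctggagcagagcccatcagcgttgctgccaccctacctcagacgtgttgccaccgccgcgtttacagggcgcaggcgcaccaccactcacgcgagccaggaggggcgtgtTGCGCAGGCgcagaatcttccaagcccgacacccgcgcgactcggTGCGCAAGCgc
Of these genes, Sdhd was not called between any strains, Sdha was lowest in NZO/HlLtJ and Cox6a1 highest in CAST/EiJ.

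Genes that work with the 46 members were read from lists of mitochondrially encoded subunits, assembly factors and regulators. Of the 6 mitochondrially encoded genes of complexes III to V, mt-Co1, the catalytic subunit of complex IV, had the highest counts. It had 95507, 108461 and 111038 CPM in C57BL/6J, 70797, 73724 and 83582 in CAST/EiJ and 81626, 88254 and 94195 in NZO/HlLtJ. It was lower than in C57BL/6J in CAST/EiJ (-0.50, SE 0.04, adjusted p = 1.30e-09) and in NZO/HlLtJ (-0.27, SE 0.04, adjusted p = 1.58e-05). The nuclear genes of complex IV had 6 higher and 3 lower calls of 16 in CAST/EiJ, against 29.1% and 29.7% of all genes tested. Of these, the higher call for Cox5b was lost on adding its copy (adjusted p = 0.454 in edgeR). All mitochondrially encoded genes together took 25.8% to 28.8% of counts in C57BL/6J, 20.2% to 23.4% in CAST/EiJ and 20.9% to 23.9% in NZO/HlLtJ. These shares leave out near-identical copies listed as separate genes. Gm28437, identical to mt-Co3 over 783 bases, averaged 14262, 12513 and 12284 CPM in the same order. Gm10925, identical to mt-Atp6 over 678 bases, averaged 5191, 3695 and 8637 CPM. Without the mitochondrially encoded genes in the library sizes, but with such copies kept, the members' calls were 3 higher and 21 lower for NZO/HlLtJ and 18 and 11 for CAST/EiJ, each against C57BL/6J.

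Among 36 of 37 listed assembly factors that were tested, 8 were higher and 6 lower in NZO/HlLtJ, and 17 higher and 11 lower in CAST/EiJ, each against C57BL/6J. Over all genes tested the shares were 17.9% and 17.6% for NZO/HlLtJ and 29.1% and 29.7% for CAST/EiJ, so the list stands near this background in all but the higher calls in CAST/EiJ. Cox18, which inserts a complex IV subunit into the membrane, had 4.43 to 5.39 CPM in C57BL/6J and 8.94 to 11.2 in NZO/HlLtJ (1.08, SE 0.07, adjusted p = 5.73e-10). Tmem70, needed to assemble ATP synthase, had 51.6 to 56.5 CPM in C57BL/6J and 35.3 to 44.2 in NZO/HlLtJ (-0.48, SE 0.04, adjusted p = 2.55e-08). Higd1a, a small protein bound to complex IV, had 58.7 to 73.0 CPM in C57BL/6J and 101 to 130 in CAST/EiJ (0.81, SE 0.05, adjusted p = 2.07e-11). Atpif1, the inhibitor of ATP synthase, was lower in NZO/HlLtJ (-0.69, SE 0.06, adjusted p = 1.66e-08), at 26.7 to 34.8 CPM against 40.0 to 54.5 in C57BL/6J. Of 15 regulators, Ppargc1a, a coactivator of mitochondrial genes, was lower in NZO/HlLtJ (-0.72, SE 0.12, adjusted p = 0.000325) and in CAST/EiJ (-0.50, SE 0.12, adjusted p = 0.00245) than in C57BL/6J. It is 1 of the 2 regulators lower in NZO/HlLtJ and of the 3 lower in CAST/EiJ, with 1 and 3 higher. For 15 genes these counts are at or below the shares of all genes given for the assembly factors. Its relation to the members' levels was not tested.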

How the data were processed

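RNA was measured in 24 mouse heart libraries in 12 groups. The authors deposited expected counts per gene, of which 19.3% of values were not whole (tolerance 1e-06), and, for the same genes, variance-stabilized values near a log2 scale. The submitters' processing notes name GRCm38 and DESeq2. The sources used here do not give the aligner, the counter, its treatment of strand and of reads that match several genes, or the annotation release.

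Expected counts were rounded and tested with edgeR 4.0.16 in R 4.3.3 (filterByExpr with a minimum count of 10 and minimum total of 15, TMM, quasi-likelihood test in 1 fit with a mean per group, robust). The filter left 17203 of 20961 genes. Contrasts weighted groups equally, p-values were adjusted over all genes tested by Benjamini-Hochberg with a threshold of 0.05, and the standard error is the log2 difference divided by the square root of F. CPM are scaled by TMM factors, and values of genes beside their copies use the counts before rounding. Copies were found by matching GENCODE M21 transcripts at 95% identity over 100 bases, and summed from 150 bases. Genes were named by the smallest adjusted p (6 per direction) among called members, or by the highest and lowest difference where none was called. The gene set and lists were proposed with earlier results of these data known, although the rule itself reads symbols only. The model was tested on simulated data.

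Alternatives were DESeq2 1.42.0, limma-voom (limma 3.58.1), RLE scaling, no filter, library sizes without mitochondrially encoded genes, identifier range as a block or alone, only the libraries compared, a pseudocount of 0.5 CPM in the ratios and leaving out each library. Chosen after seeing the data were limma on the deposited log2 values, sums with copies, and the tests of sex effects between strains.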

Additional observations from a re-analysis of the deposited data

Results flagged for a closer look

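For each member, isoform ratio and sum, the 8 libraries of a strain were checked for a highest or lowest library whose gap to the next, over the whole range, was above Dixon's critical value of 0.526. Of 162 such groups 15 exceeded it (9.26%), where chance gives about 1 in 20.

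The second NZO/HlLtJ female 10% fat library was the highest of its strain in 8 of these. It had 321 CPM for Uqcrh (others 269 to 290), 414 for Cox5a (323 to 363), 1.50 for Cox6b2 (0.442 to 0.745), 311 for Atp5j (272 to 289), 281 for Atp5j2 (242 to 259) and 161 for Atp5k (118 to 134). Its Cox6b2/Cox6b1 log2 ratio was -7.87 (others -9.46 to -8.78), and its summed level of the 46 genes was 22992 CPM (others 20042 to 21408). The second C57BL/6J male 44% fat library was highest for Uqcr10 at 168 CPM (others 138 to 152), Uqcrq at 254 (219 to 236) and Cox6c at 523 (452 to 476). The first CAST/EiJ male 10% fat library had 75.5 CPM for Cox6a1 (others 47.7 to 57.7), and with it the lowest Cox6a2/Cox6a1 log2 ratio of its strain at 3.06 (others 3.44 to 3.75). The second CAST/EiJ female 44% fat library had 0.527 CPM for Cox6b2 (others 0.0880 to 0.277). The second C57BL/6J female 10% fat library had the lowest Cox8b/Cox8a log2 ratio, 1.21 (others 1.37 to 1.48). What sets these libraries apart was not tested.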

How the results depend on the processing

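The strain calls kept their counts within 1.5 times under DESeq2, limma-voom, RLE scaling, no filter, library sizes without mitochondrially encoded genes, the identifier range as a block, only the libraries compared, limma on the deposited values and sums with copies. Within the middle and then the highest range of sample identifiers, where each strain has fewer libraries and the strains differ in sex and diet (C57BL/6J males alone, then females alone, and CAST/EiJ 10% fat alone, then 44% alone), NZO/HlLtJ minus C57BL/6J had 0 and 1 members higher and 1 and 10 lower, CAST/EiJ minus C57BL/6J 1 and 6 higher and 1 and 2 lower (3 lower in the lowest range), and NZO/HlLtJ minus CAST/EiJ 3 and 4 higher and 7 and 17 lower. For the isoform ratios no call was possible within a range, because the exact test cannot pass the threshold after adjustment with so few libraries. DESeq2 called 2 members lower in the sex effect of NZO/HlLtJ minus that of CAST/EiJ. Directions reversed for Atp5e in NZO/HlLtJ minus C57BL/6J (-0.026 in the highest range), for Uqcr11 (-0.0093) and Uqcr10 (-0.021) in CAST/EiJ minus C57BL/6J and Atp5j2 in NZO/HlLtJ minus CAST/EiJ (0.00124) in the middle range, where the cause was not tested, and for Atp5g2 in CAST/EiJ minus C57BL/6J (-0.086) on adding its copies. Leaving out each library in turn gave 2 to 4 higher and 16 to 24 lower (NZO/HlLtJ minus C57BL/6J), 17 to 18 and 9 to 11 (CAST/EiJ minus C57BL/6J), 6 to 8 and 27 to 31 (NZO/HlLtJ minus CAST/EiJ), 0 to 0 in every diet and sex comparison, and 11 to 12 ratio calls. Of called members, 18 of 23, 26 of 28 and 33 of 36 kept their call in all these fits. Over the other alternatives, which include the fits within identifier ranges, 1 of 23, 1 of 28 and 9 of 36 kept it throughout. No paired analysis was possible because the labels carry no replicate numbers.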

Other observations

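Counts named Cycs, for cytochrome c, the carrier between complexes III and IV, and those of its copy had a strain pattern like that of Atp5g2 and Gm10175. From which gene the reads came was not tested. Cycs had medians of 218, 713 and 215 CPM in C57BL/6J, CAST/EiJ and NZO/HlLtJ, and Gm10053, which matches it, had 559, 83.3 and 551. The medians of the sum were 777, 790 and 765 CPM, with ranges that overlap in all pairs of strains. mt-Co2, a mitochondrially encoded subunit of complex IV, had 6212 to 10044 CPM in C57BL/6J, 18.2 to 29.5 in CAST/EiJ and 7013 to 9132 in NZO/HlLtJ. Copies of its sequence are listed as separate genes. Gm28661, identical to mt-Co2 over 681 bases, averaged 18503 CPM in C57BL/6J, 13561 in CAST/EiJ and 13749 in NZO/HlLtJ, the largest share of the sum in each strain. Gm13341 (95.9% identity over 684 bases) averaged 0.365, 3665 and 0.0910 CPM. The sums averaged 26270, 17248 and 21802 CPM, so the near-absence of counts named mt-Co2 in CAST/EiJ is not a near-absence in the sum.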
